A study of Mus musculus with 19 samples.

Results

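The 10 genes described here form the hepatic insulin route from the receptor to the FoxO transcription factors. They are Insr (the insulin receptor), Irs1 and Irs2 (its adaptors), Akt2 (the kinase), Foxo1 and Foxo3 (transcription factors), and Cited2, Trib1, Ccng2 and Fbxo32 (genes tied to FoxO or to insulin signalling). They were taken by symbol, with earlier results of these data known, and were 10 of the 14576 genes in the deposited table of counts. All 10 passed the filter on low counts, which left 12493 genes for testing. RNA was measured in livers of 19 adult mice, each carrying 1 ROSA26 allele with floxed channelrhodopsin-2 (ChR2 fl/wt), a cation channel opened by blue light. Mice called tg were AgRP-IRES-Cre tg/wt, so that Cre made from the gene of agouti-related peptide (AgRP), a marker of hunger-driving hypothalamic neurons, could switch the channel on. Mice called wt were AgRP-IRES-Cre wt/wt and had no Cre. Every mouse received 473 nm light through a fibre above the arcuate nucleus, as 10 ms pulses repeated at 20 Hz in trains of 3 s separated by pauses of 1 s, and had no food during the light. The light lasted 2 h from zeitgeber time 5.5 or 4 h from zeitgeber time 3.5, and livers were taken at zeitgeber time 7.5 in both cases. The groups were tg 2 h (4 mice), wt 2 h (5 mice), tg 4 h (5 mice) and wt 4 h (5 mice), and all carry the diet label random fed. No tg mice went without light, so excitation of the neurons and the presence of Cre cannot be told apart.

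In the liver, insulin binds its receptor, which phosphorylates IRS adaptors, which recruit PI3-kinase and so activate AKT. AKT phosphorylates FoxO1 and FoxO3, which leave the nucleus, and genes that they activate, among them genes of gluconeogenesis, fall silent. FoxO factors act back on the route, since Irs2 and Insr are among the genes they are known to induce, and their mRNA levels say nothing of phosphorylation, which was not measured.

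The libraries held 21474255 to 32721828 counts. Summed hepatocyte markers (Alb, Apoa1, Ttr and 3 others) lay between 60458 and 94936 CPM in tg 2 h, 70721 and 89831 CPM in wt 2 h, 87759 and 101511 CPM in tg 4 h, and 67909 and 91325 CPM in wt 4 h, where CPM is the count scaled to a common library size after TMM normalisation. Of these 6 markers 1 was called higher at 4 h, with a median log2 fold change of 0.24 over the list, and 0 were called at 2 h. Of 5 cholangiocyte markers 1 was called lower at 2 h, with a list median of 0.34, and of 5 erythroid markers 0 were called, with medians of -0.67 at 2 h and -0.55 at 4 h. Markers of 3 further lists also had 0 calls. Their medians at 2 h and 4 h were -0.60 and 0.33 for adipocyte and mesothelium (3 measured) and 0.34 and 0.62 for neutrophils (2 measured). For lymphocytes (6 measured) they were -0.01 and -0.37. The part of these markers in the results was not tested. Of 7 skeletal muscle markers, 6, Ckm and Acta1 among them, failed the filter on low counts, and the one left, Mylpf, stayed at or below 0.743 CPM. The genotype labels could not be checked on AgRP, which was not analysed here. Replicate 3 of tg 4 h and replicate 1 of wt 4 h lay nearer to the other genotype than did the rest of their groups. On a scale where the mean of wt 4 h is 0 and that of tg 4 h is 1, their median positions over the 1423 genes that differed at 4 h were 0.81 and 0.279, against 1 to 1.14 and -0.224 to 0.156 for the others. Mitochondrial transcripts made up 7.75% of counts in tg 2 h replicate 1 and 7.83% in wt 4 h replicate 1, against 10% to 12.9% in the other libraries. In whole livers, a lower level can mean fewer cells of a type or less RNA per cell, and these cannot be told apart.

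Foxo1 differed more clearly between the genotypes than any other of the 10 genes. Its level was about 2-fold higher in tg livers at both durations, and no tg liver overlapped any wt liver of the same duration. At 2 h, Irs1 and Cited2 were lower in tg livers, and at 4 h Trib1 was higher. Insr and Akt2, the receptor and the kinase, did not pass the test at either duration. In total 3 of the 10 genes passed at 2 h, where 2.16% of all 12493 genes did, and 2 of the 10 passed at 4 h, where 11.4% of all genes did. The 2 h share is thus above that of all genes, in a set chosen with earlier results known, and the 4 h share rests on 2 genes. The 2 h count was 1 without tg 2 h replicate 1, and the 4 h count was 1 when either tg 4 h replicate 5 or wt 4 h replicate 2 was left out, and 5 with limma-voom and sample weights. A gene passed when its Benjamini-Hochberg adjusted p over all tested genes, from the quasi-likelihood test of edgeR, was under 0.05. The median absolute log2 fold change of the 10 genes was 0.49 at 2 h, against 0.12 over all genes, and 0.25 at 4 h, against 0.17 over all genes.

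**Figure D1:**
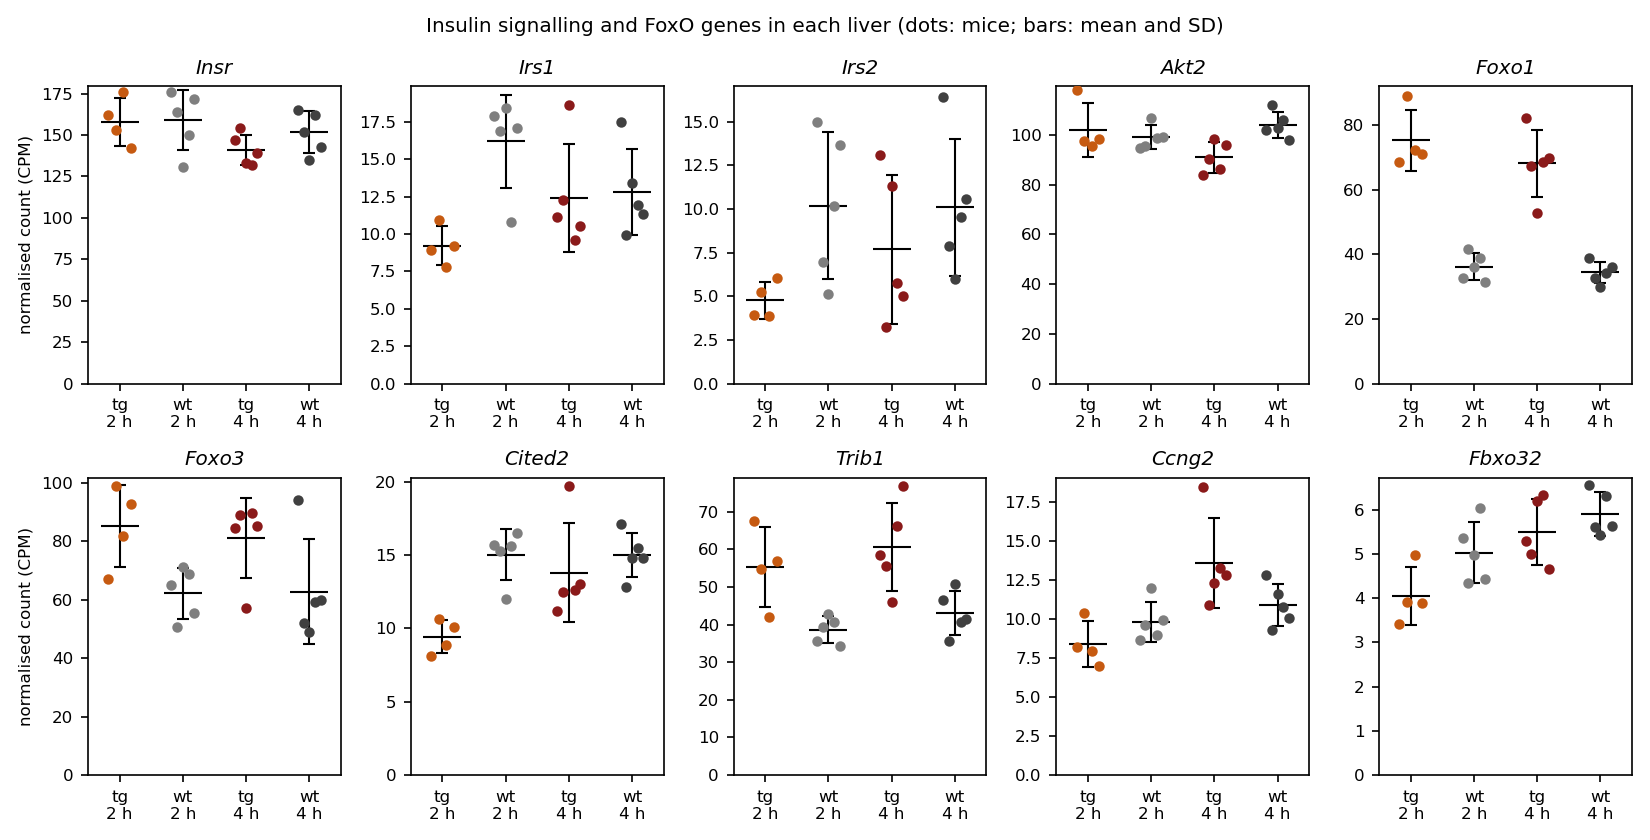
Normalised counts (CPM, linear axes from 0) of the 10 genes in each of 19 livers. Dots are mice, and bars give the mean and SD of tg 2 h (n = 4), wt 2 h, tg 4 h and wt 4 h (n = 5 each). The dots of Foxo1 separate by genotype at both durations, from 52.9 to 89.2 CPM in tg and from 30 to 41.8 CPM in wt, whereas those of Insr overlap.

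Per length of merged annotated exons, Akt2 had the highest mean level in all 4 groups and Fbxo32 the lowest. This length pools every annotated exon of a gene, whichever of them liver uses, and the order between genes depends on it. Akt2 averaged 14.4 CPM per kb in tg 2 h, 13.9 in wt 2 h, 12.8 in tg 4 h and 14.6 in wt 4 h. Insr followed in tg 2 h at 11.5 CPM per kb, in wt 2 h also at 11.5 and in wt 4 h at 11, and in tg 4 h Foxo3 (10.7) came before Insr (10.3), with overlapping libraries. Both adaptors were low: Irs1 averaged 1.01 CPM per kb in tg 2 h, 1.78 in wt 2 h, 1.36 in tg 4 h and 1.4 in wt 4 h. Irs2 averaged 0.753 CPM per kb in tg 2 h, 1.61 in wt 2 h, 1.22 in tg 4 h and 1.6 in wt 4 h, and its libraries overlapped those of Irs1 in each group. Foxo1 and Cited2 changed places with genotype. In tg livers Foxo1 averaged 8.69 CPM per kb at 2 h and 7.87 at 4 h, above Cited2 at 3.84 and 5.61, whereas in wt livers Foxo1 averaged 4.18 and 3.97, below Cited2 at 6.12 and 6.11. The libraries of these 2 genes did not overlap in tg 2 h, wt 2 h or wt 4 h, and overlapped in tg 4 h. The whole order in wt 2 h was Akt2, Insr, Foxo3, Trib1, Cited2, Foxo1, Ccng2, Irs1, Irs2 and Fbxo32, and the pairs next to each other that overlapped in it were Foxo3 with Trib1, Trib1 with Cited2, Ccng2 with Irs1, Irs1 with Irs2, and Irs2 with Fbxo32. In wt 4 h Irs2 came before Irs1, and Insr also overlapped Foxo3. In tg 2 h the overlapping neighbours were Insr with Foxo3, Foxo3 with Trib1, Trib1 with Foxo1, Irs1 with Irs2, and Irs2 with Fbxo32, and in tg 4 h every gene overlapped the next but Cited2, which lay above Ccng2.

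**Figure D2:**
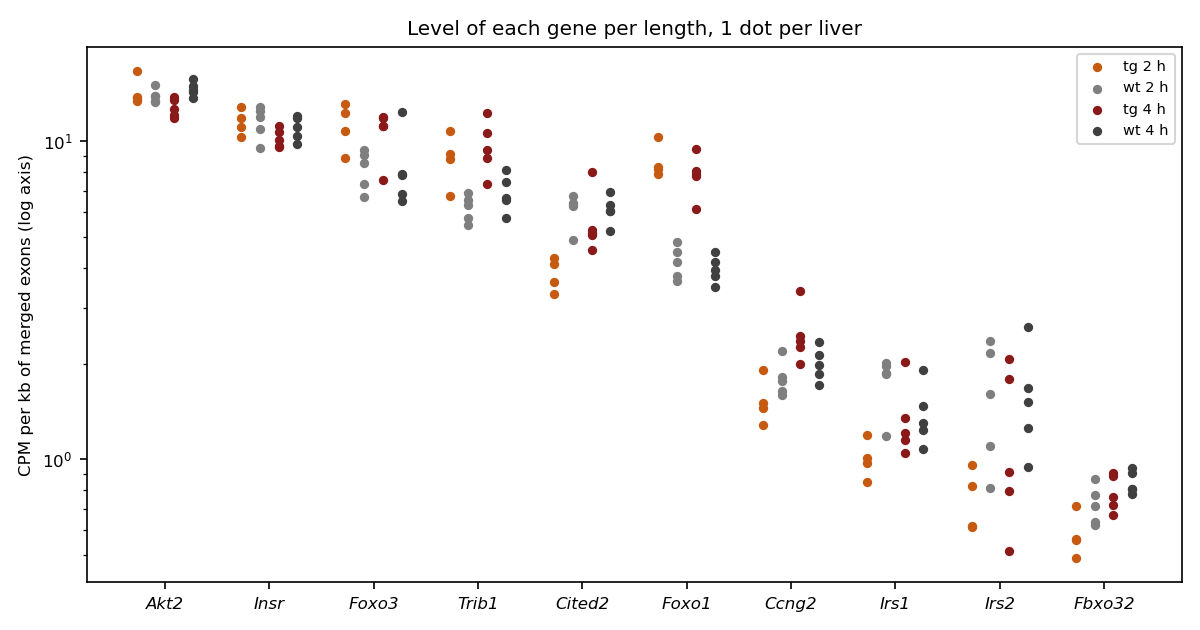
Level of each gene in CPM per kb of merged exons (log axis), 1 dot per liver, with genes ordered by their mean in wt 2 h. Akt2, Insr, Foxo3 and Trib1 lie above 5 CPM per kb in every liver, and Irs1, Irs2 and Fbxo32 lie below 3.

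Insr, on chromosome 8 (positions 3122061 to 3279617 of GRCm38, minus strand), encodes the receptor itself. It had 162, 153, 176 and 142 CPM in tg 2 h livers, against 176, 164, 131, 150 and 172 CPM in wt 2 h livers. At 4 h it had 147, 154, 133, 132 and 139 CPM in tg livers, against 165, 152, 135, 162 and 143 CPM in wt livers. The genotypes overlapped at both durations. The log2 fold change of tg against wt was -0.003 at 2 h, with a 95% interval of -0.20 to 0.20, and -0.10 at 4 h, with an interval of -0.29 to 0.08. As folds the intervals run from 0.869 to 1.14 at 2 h and from 0.817 to 1.06 at 4 h, and differences within these bounds are not excluded.

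Akt2, the AKT isoform best known for carrying insulin's metabolic signal, lies on chromosome 7 (27591552 to 27640826, plus strand). It had 118, 97.4, 95.7 and 98.2 CPM in tg 2 h livers, against 94.9, 95.7, 107, 98.8 and 99 CPM in wt 2 h livers. Replicate 1 of tg 2 h stood apart at 118 CPM, and its mitochondrial share was also low. At 4 h Akt2 had 83.9, 90.2, 98.4, 86.3 and 96.1 CPM in tg livers, against 102, 112, 103, 106 and 97.9 CPM in wt livers, and only the lowest wt liver and the highest tg liver overlapped. The log2 fold change was 0.05 ± 0.08 (SE) at 2 h (edgeR adjusted p = 0.926) and -0.20 ± 0.07 at 4 h (edgeR adjusted p = 0.091). With upper-quartile scaling of the libraries the 4 h value was -0.23 (edgeR adjusted p = 0.0453), with total counts alone -0.28 (edgeR adjusted p = 0.0259) and with limma-voom and sample weights -0.24 (limma adjusted p = 0.013), so its side of the threshold depends on these choices.

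The adaptors Irs1 and Irs2 carry the signal from the receptor to PI3-kinase, and in mouse liver both are used. Irs1 lies on chromosome 1 (82233101 to 82291416, minus strand) and Irs2 on chromosome 8 (10984681 to 11008458, minus strand). Their RefSeq promoters on GRCm38 (250 bases before to 50 after the start site, printed along the gene's own strand) are shown because both hold the letters of an insulin response sequence close to the start site. They are chr1:82291390-82291689 for Irs1 and chr8:11008880-11009179 for Irs2, and capitals mark every motif found. The RefSeq start of Irs2 lies 471 bases upstream of the GENCODE start.

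Irs1: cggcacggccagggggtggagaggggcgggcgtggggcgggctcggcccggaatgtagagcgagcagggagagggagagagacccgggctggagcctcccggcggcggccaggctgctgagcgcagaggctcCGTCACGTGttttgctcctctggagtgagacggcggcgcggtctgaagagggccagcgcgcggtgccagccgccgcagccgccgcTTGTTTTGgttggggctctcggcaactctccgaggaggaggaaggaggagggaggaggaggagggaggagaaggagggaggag

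Irs2: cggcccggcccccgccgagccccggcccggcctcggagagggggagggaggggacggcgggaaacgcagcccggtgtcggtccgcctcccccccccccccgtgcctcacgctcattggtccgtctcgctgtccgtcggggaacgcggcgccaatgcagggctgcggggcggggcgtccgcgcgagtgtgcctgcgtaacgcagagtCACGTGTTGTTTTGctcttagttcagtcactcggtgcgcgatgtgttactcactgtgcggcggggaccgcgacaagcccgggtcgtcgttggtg

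The insulin response sequence CAAAACAA, read on the other strand as TTGTTTTG, begins 33 bases before the start site in Irs1 and 38 bases before it in Irs2. A CACGTG E-box begins 115 bases before the start in Irs1 and 44 bases before it in Irs2, where it directly adjoins the insulin response sequence. In Irs1 the E-box overlaps the letters CGTCA, which is the short cAMP element TGACG on the other strand. Among 32851 RefSeq promoters of the same length, 2.51% hold CAAAACAA on either strand, 7.15% hold CACGTG and 20.8% hold TGACG. The letters CACGTG, singled out after the matches were seen, is held by 10.8% of the 9690 promoters with at least 60% G and C, and the windows of Irs1 and Irs2 have 71.3% and 72%. A match describes letters only, and binding was not measured.

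Irs1 was lower in tg livers at 2 h. It had 8.92, 10.9, 7.77 and 9.2 CPM in tg 2 h livers, against 17.9, 16.9, 18.4, 10.8 and 17.1 CPM in wt 2 h livers. Of the wt livers, 4 lay well above every tg liver, and replicate 4 lay just below the highest tg liver. The log2 fold change was -0.82 ± 0.20 (edgeR adjusted p = 0.03), or 0.566-fold. It stayed between -0.94 and -0.75 in the 9 fits that left out 1 library, but its adjusted p was under 0.05 only without tg 2 h replicate 2 (edgeR adjusted p = 0.0415) or wt 2 h replicate 4 (edgeR adjusted p = 0.0107), and reached 0.0962 without tg 2 h replicate 5 by the same test in edgeR. At 4 h Irs1 had 11.1, 12.3, 18.6, 9.58 and 10.5 CPM in tg livers, against 17.5, 9.91, 13.4, 11.9 and 11.3 CPM in wt livers. The genotypes overlapped throughout at 4 h, with a log2 fold change of -0.05 ± 0.18 and a 95% interval of -0.43 to 0.33. The highest Irs1 values at 4 h came from tg replicate 3 and wt replicate 1, the pair of libraries that lay nearer to the other genotype.

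Irs2 varied more between mice than any other of the 10 genes. It had 3.9, 5.22, 3.86 and 6.06 CPM in tg 2 h livers, against 15, 6.98, 5.13, 10.2 and 13.7 CPM in wt 2 h livers. Irs2 at 4 h had 13.1, 3.24, 11.3, 5.76 and 5.04 CPM in tg livers, against 16.4, 7.89, 5.99, 9.54 and 10.6 CPM in wt livers. At 2 h only 1 wt liver fell into the range of the tg livers, and at 4 h 2 tg livers lay among the high wt livers. Irs2 had a log2 fold change of -1.10 ± 0.40 at 2 h (edgeR adjusted p = 0.233), with a 95% interval of -1.95 to -0.25, and -0.39 ± 0.37 at 4 h (edgeR adjusted p = 0.549). In the authors' deposited table, which treats each duration alone, Irs2 at 2 h has the same log2 fold change of -1.10 with an adjusted p of 0.00816. In the fits run here Irs2 at 2 h was called in 0 of 10 alternatives, DESeq2 and the compared groups alone among them. It was also called in 0 of 9 fits that left out 1 library.

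Foxo1 lies on chromosome 3 (52268336 to 52353221, plus strand). It encodes the FoxO factor best known for driving hepatic gluconeogenesis when insulin is low. It had 68.6, 89.2, 72.2 and 71.1 CPM in tg 2 h livers, against 32.8, 41.8, 36.1, 38.8 and 31.6 CPM in wt 2 h livers. Foxo1 at 4 h had 82.2, 67.3, 52.9, 68.6 and 69.9 CPM in tg livers, against 38.8, 32.6, 30, 34.2 and 36.1 CPM in wt livers. The lowest tg liver, 4 h replicate 3, still lay above all 10 wt livers. Foxo1 had a log2 fold change of 1.06 ± 0.12 at 2 h (edgeR adjusted p = 5.76e-05) and 0.99 ± 0.11 at 4 h (edgeR adjusted p = 2.19e-05), which is 2.08-fold and 1.98-fold. By unadjusted p, Foxo1 ranked 3 of 12493 genes at 2 h and 11 at 4 h. Its call held in each of the 9 fits at 2 h and the 10 fits at 4 h that left out 1 library, with log2 fold changes of 0.96 to 1.11 and 0.91 to 1.07. Groups without overlap were found for 6% of all genes at 2 h and 8.19% at 4 h, in either direction. Of the 10 genes described, 2 were without overlap at 2 h, Foxo1 and Cited2, and 1 at 4 h, Foxo1.

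The Foxo1 promoter in RefSeq, chr3:52268087-52268386 on the plus strand, is shown because Foxo1 had the clearest difference.

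Foxo1: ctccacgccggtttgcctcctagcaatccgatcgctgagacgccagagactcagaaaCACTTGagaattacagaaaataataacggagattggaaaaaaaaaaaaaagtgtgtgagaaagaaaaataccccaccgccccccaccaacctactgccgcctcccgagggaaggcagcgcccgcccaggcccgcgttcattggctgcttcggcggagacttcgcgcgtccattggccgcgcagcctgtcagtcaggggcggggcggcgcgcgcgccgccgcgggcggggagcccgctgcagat

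Its single motif is an E-box (CANNTG) with the letters CACTTG, in capitals, beginning 193 bases before the start site, and 72.3% of all promoters hold a CANNTG. The forkhead letters GTAAACA (3.65% of promoters), the DAF-16 binding element TTGTTTAC (1.23%), the short glucocorticoid element AGAACA (19%) and the cAMP response element TGACGTCA (1.79%) are not in this window on either strand, nor in that of any of the other genes with a promoter in the table. That holds for these letters in these windows alone.

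Foxo3, on chromosome 10 (42181841 to 42276755, minus strand), is a second FoxO factor under AKT control. It had 67.1, 98.8, 81.7 and 92.8 CPM in tg 2 h livers, against 64.9, 50.7, 71.2, 68.8 and 55.4 CPM in wt 2 h livers. Foxo3 at 4 h had 84.7, 89, 57.2, 89.8 and 85.1 CPM in tg livers, against 94.1, 51.9, 49.1, 59.1 and 59.9 CPM in wt livers. At 4 h the overlap came from tg replicate 3 and wt replicate 1. These libraries lay nearer to the other genotype over the 1423 genes that differed at 4 h. Foxo3 had a log2 fold change of 0.45 ± 0.17 at 2 h (edgeR adjusted p = 0.261) and 0.37 ± 0.16 at 4 h (edgeR adjusted p = 0.163). Without wt 4 h replicate 1 the 4 h value was 0.56 (edgeR adjusted p = 0.01), and without tg 4 h replicate 3 it was 0.47 (edgeR adjusted p = 0.0598). With both left out, a check added after seeing the data that widens the difference by the way they were picked, it was 0.66 (edgeR adjusted p = 0.00114). Averaged over the durations Foxo3 was higher in tg by 0.41 ± 0.12 (edgeR adjusted p = 0.0252), a call that ended without tg 2 h replicate 2 (edgeR adjusted p = 0.0588) or 5 (edgeR adjusted p = 0.0562), and with total counts as the only scaling (0.33, edgeR adjusted p = 0.0765). With limma-voom and sample weights Foxo3 passed at 2 h (0.56, limma adjusted p = 0.0365) and at 4 h (0.54, limma adjusted p = 0.00743).

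Cited2 encodes a CBP and p300 binding protein that in mouse liver is known to raise gluconeogenesis through PGC-1α, and it is counted here among FoxO partners and targets. It lies on chromosome 10 (17723218 to 17725674, plus strand). Its promoter, chr10:17722978-17723277 on the plus strand, is shown because Cited2 fell with Irs1 at 2 h, and it too holds a CACGTG, here 153 bases before the start site, besides a CAGCTG beginning at base 14 after it.

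Cited2: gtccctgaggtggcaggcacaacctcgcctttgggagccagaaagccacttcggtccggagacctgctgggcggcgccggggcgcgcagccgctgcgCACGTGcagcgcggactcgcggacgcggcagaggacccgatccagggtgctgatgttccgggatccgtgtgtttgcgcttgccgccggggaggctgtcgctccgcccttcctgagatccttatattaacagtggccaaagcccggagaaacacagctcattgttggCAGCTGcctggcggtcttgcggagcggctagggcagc

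Thus 3 of the 7 genes with a promoter in the RefSeq table, Irs1, Irs2 and Cited2, hold CACGTG, and 3, Irs1, Irs2 and Ccng2, hold CAAAACAA. With so few promoters these are descriptions only.

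Cited2 had 8.14, 10.6, 8.88 and 10.1 CPM in tg 2 h livers, against 15.7, 15.3, 12, 15.6 and 16.5 CPM in wt 2 h livers. Every tg liver lay below every wt liver. The log2 fold change was -0.67 ± 0.14 (edgeR adjusted p = 0.0137), and it lost its call without tg 2 h replicate 1 (-0.61, edgeR adjusted p = 0.0622). At 4 h Cited2 had 11.2, 12.5, 19.7, 12.6 and 13 CPM in tg livers, against 17.1, 12.8, 14.8, 15.5 and 14.8 CPM in wt livers. At 4 h 3 tg livers lay below all wt livers and tg replicate 3 lay above them all. The 4 h log2 fold change was -0.12 ± 0.13 (edgeR adjusted p = 0.621), and -0.28 without tg 4 h replicate 3 (edgeR adjusted p = 0.0943).

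Trib1 encodes a pseudokinase of the Tribbles family, known in mouse liver for lowering lipogenesis, and lies on chromosome 15 (59648350 to 59657099, plus strand). It had 67.7, 54.8, 41.9 and 56.8 CPM in tg 2 h livers, against 35.7, 39.3, 42.9, 40.8 and 34.2 CPM in wt 2 h livers. Trib1 at 4 h had 58.6, 55.5, 45.9, 66.3 and 77 CPM in tg livers, against 46.6, 35.7, 50.8, 40.8 and 41.4 CPM in wt livers. At each duration replicate 3 was the lowest tg liver and the one that overlapped wt. The log2 fold changes were nearly the same, 0.52 ± 0.14 at 2 h (edgeR adjusted p = 0.0611) and 0.49 ± 0.13 at 4 h (edgeR adjusted p = 0.0203). The 4 h call ended without tg 4 h replicate 5 (edgeR adjusted p = 0.0727), without wt 4 h replicate 2 (edgeR adjusted p = 0.064) or with total counts as the only scaling (edgeR adjusted p = 0.0614). At 2 h Trib1 passed without tg 2 h replicate 3 (edgeR adjusted p = 0.0229) and with DESeq2 (adjusted p = 0.0208).

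Ccng2 encodes cyclin G2, which slows the cell cycle and is a known FoxO target, and lies on chromosome 5 (93267257 to 93276231, plus strand). Its promoter holds CAAAACAA on the gene strand, beginning 16 bases before the start site. It had 8.18, 10.4, 7.93 and 6.99 CPM in tg 2 h livers, against 8.66, 9.63, 12, 8.96 and 9.94 CPM in wt 2 h livers. Ccng2 at 4 h had 18.5, 10.9, 12.3, 13.3 and 12.8 CPM in tg livers, against 12.8, 9.33, 11.6, 10.8 and 10.1 CPM in wt livers. Between genotypes it did not pass at either duration, with log2 fold changes of -0.23 ± 0.15 at 2 h (edgeR adjusted p = 0.634) and 0.31 ± 0.14 at 4 h (edgeR adjusted p = 0.159). With limma-voom and sample weights Ccng2 passed at 4 h (0.37, limma adjusted p = 0.0461).

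Fbxo32 encodes atrogin-1, a ubiquitin ligase subunit known best as a FoxO target in wasting muscle, and lies on chromosome 15 (58175879 to 58214932, minus strand). It was the faintest of the 10 genes, with 83 to 214 counts per library. It had 3.41, 3.91, 4.97 and 3.89 CPM in tg 2 h livers, against 5.37, 4.34, 4.98, 6.03 and 4.44 CPM in wt 2 h livers. Fbxo32 at 4 h had 5.3, 5.01, 6.2, 6.33 and 4.65 CPM in tg livers, against 6.57, 5.62, 5.42, 6.31 and 5.64 CPM in wt livers. Groups overlapped at both durations, with log2 fold changes of -0.31 ± 0.14 at 2 h (edgeR adjusted p = 0.36) and -0.10 ± 0.13 at 4 h (edgeR adjusted p = 0.662). Markers of skeletal muscle were at or near 0 in the same livers, as given above.

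Several of these genes share their place in the genome with other annotated genes. Insr, Irs1, Irs2, Foxo1 and Fbxo32 overlap a gene on the opposite strand, and Foxo1 also overlaps Gm38034 on its own strand. The kit was stranded, but whether the counting made use of strand is not given in the sources, and reads of such partners cannot be set apart.

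Averaged over both durations, 5 of the 10 genes passed, where 14.2% of all genes did: Foxo1 (1.02 ± 0.08), Trib1 (0.51 ± 0.10) and Foxo3 were higher in tg, and Irs1 (-0.43 ± 0.13) and Cited2 (-0.40 ± 0.10) were lower. The count was 3 to 5 in the 19 fits that left out 1 library, and 3 without tg 2 h replicate 5. The average call of Irs1 (edgeR adjusted p = 0.0343) held in 6 of those 19 fits, whereas those of Foxo1, Trib1 and Cited2 held in all of them. Irs2 was at -0.75 ± 0.27 (edgeR adjusted p = 0.0791), and passed with DESeq2 (adjusted p = 0.0234), with limma-voom and sample weights (limma adjusted p = 0.0436), and without tg 4 h replicate 1 (edgeR adjusted p = 0.0345) or without wt 2 h replicate 3 (edgeR adjusted p = 0.0486). The average uses the same livers as the values at each duration and adds no independent sample.

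The difference between the 4 h and the 2 h effect was not called for any of the 10 genes, nor for any of the 12493 genes (0% called). Unadjusted, 723 genes had a p under 0.05, and DESeq2 called 6 genes, limma-voom 0 and limma-voom with sample weights 0. Of the 10 genes, 4 had an unadjusted p under 0.05 in edgeR's quasi-likelihood test of the difference: Irs1 (0.78, unadjusted p = 0.00895), Cited2 (0.55, unadjusted p = 0.0103), Ccng2 (0.54, unadjusted p = 0.0148) and Akt2 (-0.24, unadjusted p = 0.0339). Their edgeR adjusted p ran from 0.668 to 0.856, so smaller Irs1 and Cited2 differences at 4 h than at 2 h are a description of the means and did not pass the test. For Foxo1 the difference was -0.07, with a 95% interval of -0.40 to 0.26.

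Within tg, Ccng2 was higher at 4 h than at 2 h. It averaged 13.6 ± 2.88 CPM (SD, n = 5) in tg 4 h and 8.39 ± 1.47 CPM (SD, n = 4) in tg 2 h, with no overlap, and a log2 fold change of 0.69 ± 0.15 (edgeR adjusted p = 0.0309). This was the only one of the 10 genes to pass, where 0.913% of all genes did. The call held in 3 of the 9 fits that left out 1 library, and ended without tg 2 h replicate 1, 3 or 5 or tg 4 h replicate 1, 4 or 5, with edgeR adjusted p of 0.0633 to 0.108. It also ended when only tg 2 h and tg 4 h were fitted (0.69, edgeR adjusted p = 0.0861), and with a block for replicate number, given in the last section. Cited2 also had no overlap within tg, averaging 13.8 ± 3.37 CPM (SD, n = 5) in tg 4 h and 9.43 ± 1.12 CPM (SD, n = 4) in tg 2 h, but did not pass (0.55 ± 0.14, edgeR adjusted p = 0.0742) other than with DESeq2 (adjusted p = 0.0222). Groups without overlap within tg were found for 4.83% of all genes. Within wt none of the 10 genes passed, nor did any gene (0% called, 747 with an unadjusted p under 0.05), and DESeq2 called 1 gene, limma-voom 0 and limma-voom with sample weights 1. Among the 10 genes the wt log2 fold change of 4 h against 2 h furthest from 0 was that of Irs1, at -0.34 ± 0.18 (edgeR adjusted p = 0.853). Since the 4 h mice started their light earlier and went longer without food, duration, start time and time without food cannot be told apart within a genotype.

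**Figure D3:**
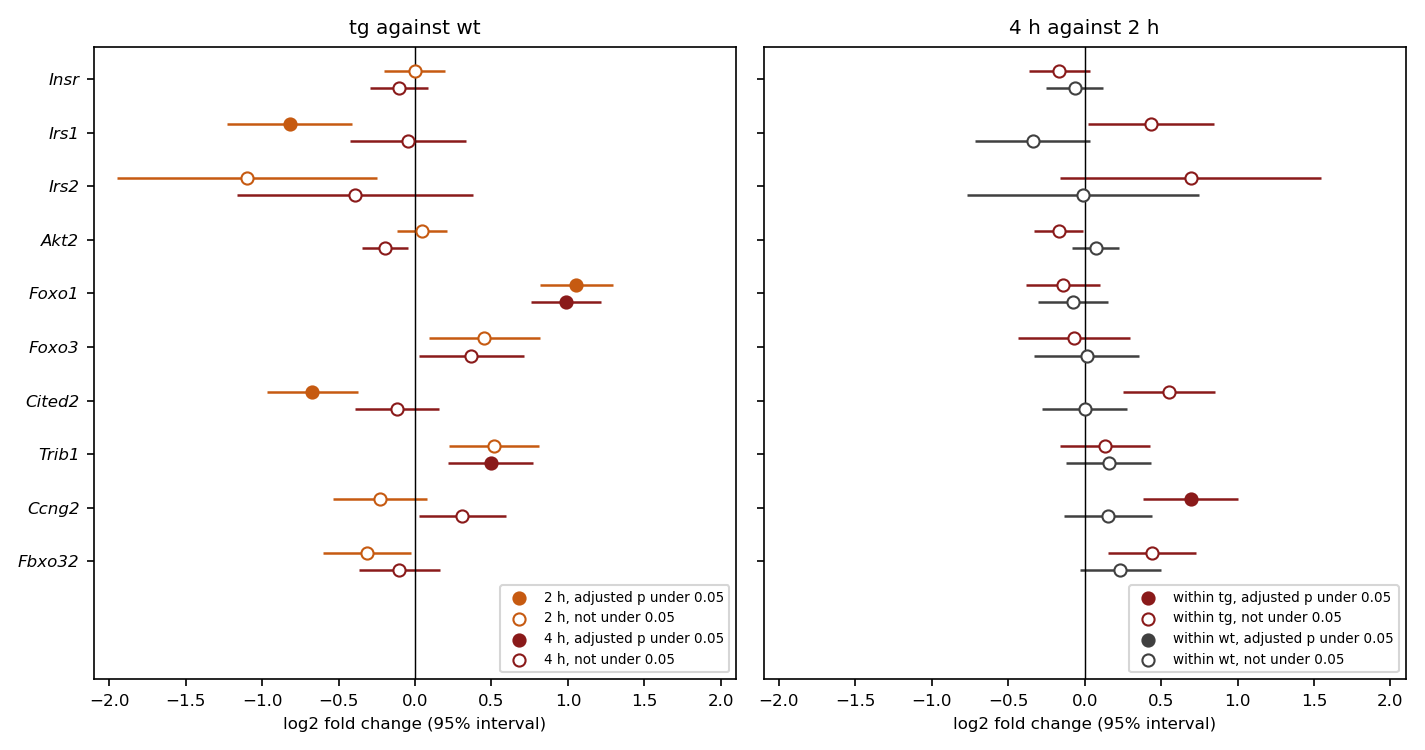
Log2 fold changes with 95% intervals of the 10 genes. The left panel gives tg against wt at 2 h (upper point of each pair) and 4 h (lower), and the right panel gives 4 h against 2 h within tg (upper) and within wt (lower), with filled points for an adjusted p under 0.05. Foxo1 lies near 1 at both durations on the left, and on the right Ccng2 within tg, at 0.69, is the filled point.

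The authors' deposited table, made for each duration alone, has 5 of the 10 genes under an adjusted p of 0.05 at 2 h and 2 at 4 h. In the authors' deposited table these are Foxo1 (log2 fold change 1.06, adjusted p 1.67e-15), Irs1 (-0.82, 0.000256), Irs2, Cited2 (-0.67, 4.82e-05) and Trib1 (0.52, 0.0116) at 2 h. At 4 h the authors' deposited table has Foxo1 (1.00, adjusted p 3.73e-13) and Trib1 (0.50, 0.00905). In the authors' deposited table Foxo3 at 2 h has 0.45 with an adjusted p of 0.0518. The genes under 0.05 there but not in the fit of all 19 livers are Irs2 and Trib1 at 2 h.

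The genes around these 10 on the same route are given next as lists, and each count of calls stands against 2.16% of all genes called at 2 h and 11.4% at 4 h, with no test between list and background. Of 25 measured genes from receptor to AKT, 1 was higher and 1 lower at 2 h (Pik3r1 and Irs1), and 1 was higher and 1 lower at 4 h (Pik3r1 and Prkcz). Pik3r1, the main regulatory subunit of PI3-kinase, averaged 94.4 ± 9.74 CPM in tg 2 h (SD, n = 4) and 59.4 ± 8.22 CPM in wt 2 h (SD, n = 5), a log2 fold change of 0.67 ± 0.13 (edgeR adjusted p = 0.00569). At 4 h Pik3r1 averaged 101 ± 17.8 CPM in tg and 59.9 ± 6.18 CPM in wt (SD, n = 5 each), a log2 fold change of 0.75 ± 0.12 (edgeR adjusted p = 0.000485). Prkcz, an atypical protein kinase C, was lower at 4 h by -0.48 ± 0.09 (edgeR adjusted p = 0.00151). The median log2 fold change of the list was -0.003 at 2 h and -0.06 at 4 h, against 0.007 and -0.01 over all genes. All lists were chosen with earlier results of these data known, and some hold genes of the 10.

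Of 22 measured inhibitors of insulin signalling, 0 were higher and 1 lower at 2 h, and 1 was higher (Trib1) and 2 lower at 4 h. Grb7, an adaptor that binds the insulin receptor, averaged 53.7 ± 6.82 CPM in tg 2 h (SD, n = 4) and 94.3 ± 10.3 CPM in wt 2 h (SD, n = 5), a log2 fold change of -0.81 ± 0.13 (edgeR adjusted p = 0.00173). At 4 h it was at -0.38 ± 0.12 (edgeR adjusted p = 0.0461), a call that held in only 2 of 10 fits without 1 library, with edgeR adjusted p of up to 0.128. Trib3, a Tribbles relative known in mice for inhibiting AKT, was lower at 4 h by -1.38 ± 0.31 (edgeR adjusted p = 0.00856), with 7.02 ± 1.83 CPM in tg and 18.2 ± 3.41 CPM in wt (SD, n = 5 each). Trib1 and Trib3 thus lay on opposite sides at 4 h.

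Of 21 measured AKT substrates and partners, 1 (Foxo1) was higher at 2 h and 4 were higher at 4 h, and none was lower at either. Besides Foxo1, the 4 h rises were those of Ywhaz (0.41 ± 0.07, edgeR adjusted p = 0.00145), a 14-3-3 protein of the kind that holds phosphorylated FoxO in the cytoplasm, Pfkfb2 (0.95 ± 0.19, edgeR adjusted p = 0.00308), a regulator of glycolysis, and the kinase Gsk3b (0.48 ± 0.12, edgeR adjusted p = 0.0123). Gsk3b lost its call with total counts as the only scaling (0.39, edgeR adjusted p = 0.0661). At 2 h no substrate besides Foxo1 passed, and the one of smallest p was Cdkn1b, the cell cycle inhibitor p27, at -0.37 (edgeR adjusted p = 0.0636).

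Of 23 measured FoxO regulators, 1 was higher and 1 lower (Cited2) at 2 h, and 2 were higher and 1 lower at 4 h. The 23 include Mst1, the symbol of macrophage-stimulating protein, beside Stk4, the kinase that was meant, and neither was called at either duration. Ppargc1a, which encodes PGC-1α, a coactivator of FoxO1 in gluconeogenesis, averaged 32.1 ± 12.2 CPM in tg 2 h (SD, n = 4) and 9.94 ± 1.9 CPM in wt 2 h (SD, n = 5). Its log2 fold change was 1.69 ± 0.23 at 2 h (edgeR adjusted p = 0.000377) and 1.63 ± 0.22 at 4 h (edgeR adjusted p = 0.000122). Thus Ppargc1a was higher at 2 h in the livers in which Cited2 was lower. At 4 h Ep300, the acetyltransferase p300, was higher (0.47 ± 0.15, edgeR adjusted p = 0.0483) and Hdac5, a deacetylase, lower (-0.56 ± 0.13, edgeR adjusted p = 0.00606). The call of Ep300 held in 2 of 10 fits without 1 library, with edgeR adjusted p of up to 0.132.

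Of 35 measured genes known as FoxO targets, 4 were higher and 2 lower at 2 h, and 10 were higher and 1 lower at 4 h, where 2.16% and 11.4% of all genes were called in either direction at these durations. The list holds 6 of the 10 genes, and of its higher genes only Trib1 at 4 h is one of them. Cdkn1a, the cell cycle inhibitor p21, had a log2 fold change of 3.59 ± 0.60 at 2 h (edgeR adjusted p = 0.00421) and 5.06 ± 0.58 at 4 h (edgeR adjusted p = 5.73e-05), and with limma-voom its 2 h call ended (3.56, limma adjusted p = 0.0541). Pck1, the phosphoenolpyruvate carboxykinase of gluconeogenesis, averaged 4870 ± 803 CPM in tg 4 h and 2634 ± 586 CPM in wt 4 h (SD, n = 5 each), a log2 fold change of 0.89 ± 0.18 (edgeR adjusted p = 0.00327). Klf15, a factor of amino acid breakdown and gluconeogenesis, was higher at 2 h (0.73 ± 0.13, edgeR adjusted p = 0.00428) and at 4 h (0.50 ± 0.12, edgeR adjusted p = 0.0127). Igfbp1, an insulin-repressed binding protein of insulin-like growth factors, averaged 182 ± 65.9 CPM in tg 4 h and 28.6 ± 32.4 CPM in wt 4 h (SD, n = 5 each), a log2 fold change of 2.66 ± 0.55 (edgeR adjusted p = 0.0054). Gadd45a, a stress gene of growth arrest, went the other way, with 1.4 ± 0.274 CPM in tg 2 h (SD, n = 4) and 4.72 ± 0.557 CPM in wt 2 h (SD, n = 5), a log2 fold change of -1.75 ± 0.30 (edgeR adjusted p = 0.00324). At 4 h Gadd45a was the single lower gene (-0.91, edgeR adjusted p = 0.0316), a call that held in 4 of 10 fits without 1 library, and the value was -0.51 without wt 4 h replicate 4 (edgeR adjusted p = 0.11). At 2 h the other higher genes were Pck1 (0.82 ± 0.19, edgeR adjusted p = 0.0241) and Igfbp1 (2.35 ± 0.57, edgeR adjusted p = 0.0397), with Igfbp1 at 2 h named after its value was seen. Their 2 h calls held in 4 and 1 of the 9 fits without 1 library. The median of the list was 0.03 at 2 h and 0.08 at 4 h, close to 0. The list was not split into genes that FoxO factors induce and genes that they repress. Its count of higher genes was 2 at 2 h without tg replicate 1, 2 or 5 or wt replicate 1 or 5. The 4 h count was 6 without tg replicate 4, 5 without tg replicate 5, 4 without wt replicate 2, 5 without wt replicate 3, and 6 with total counts as the only scaling.

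Of 20 measured genes known as induced by insulin in liver, 0 were called at 2 h in either direction, and 3 were higher and 0 lower at 4 h. Among the higher ones were Ppp1r3b (2.18 ± 0.42, edgeR adjusted p = 0.00306) and Ppp1r3c (2.28 ± 0.50, edgeR adjusted p = 0.00712), which target protein phosphatase to glycogen. Neither of these makes fat, although most of the list does, and the list's median was -0.13 at 2 h and -0.23 at 4 h. So at 4 h the insulin-repressed Igfbp1 and the insulin-induced Ppp1r3b were both higher in tg livers. At 2 h Ppp1r3b, the gene of smallest p, was at 1.58 ± 0.42 (edgeR adjusted p = 0.0691). Ppp1r3c at 4 h fell short with limma-voom (1.74, limma adjusted p = 0.0503).

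Of 9 measured atrophy ligases and F-box relatives, 1 was higher at 2 h (Fbxo30) and 3 at 4 h (Fbxo30, Fbxo31 and Traf6), and none was lower. Fbxo31, an F-box protein of the cell cycle, averaged 152 ± 33.4 CPM in tg 4 h and 82.8 ± 19.5 CPM in wt 4 h (SD, n = 5 each), a log2 fold change of 0.88 ± 0.18 (edgeR adjusted p = 0.00321). Fbxo30 was at 0.52 ± 0.13 at 2 h (edgeR adjusted p = 0.0397) and 0.45 ± 0.12 at 4 h (edgeR adjusted p = 0.0233), and Traf6 at 0.38 ± 0.12 at 4 h (edgeR adjusted p = 0.0425). At 4 h the call of Traf6 held in 3 of 10 fits without 1 library (edgeR adjusted p of up to 0.136) and that of Fbxo30 in 7 of 10 (up to 0.0725). The count at 4 h was 1 without tg replicate 5, without wt replicate 3 or with total counts as the only scaling, and the 2 h call of Fbxo30 held in 1 of 9 fits without 1 library. Fbxo32 itself did not join them. Of the 5 measured cyclin G and CITED relatives, Cited2 was the single call, at 2 h. Of its other members, those of smallest p were Cited4 at 2 h (0.14, edgeR adjusted p = 0.961) and Ccng1, cyclin G1, at 4 h (-0.17, edgeR adjusted p = 0.26).

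**Figure D4:**
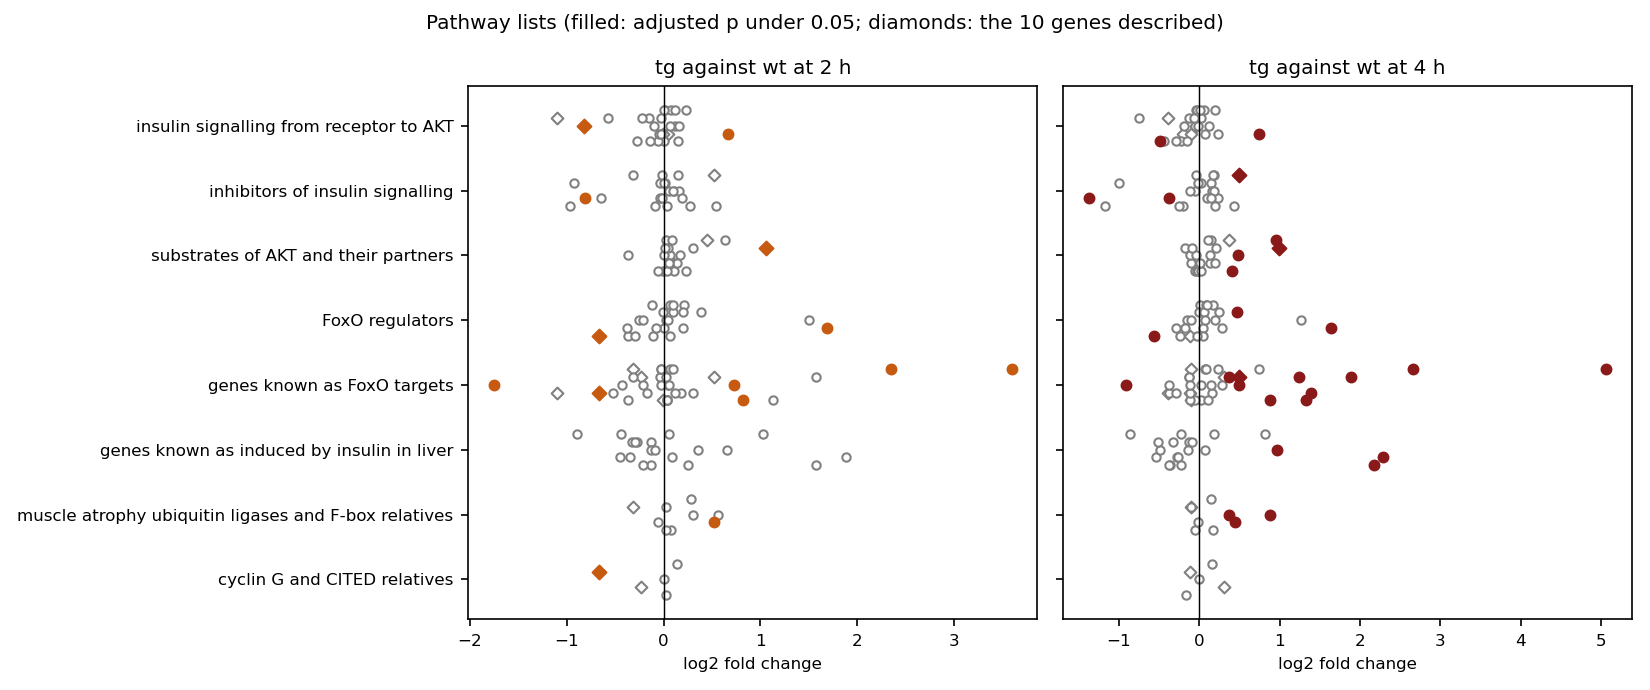
Log2 fold changes of tg against wt for every measured gene of 8 lists, at 2 h (left) and 4 h (right). Filled symbols had an adjusted p under 0.05, and diamonds are the 10 genes described. Over all genes 2.16% were called at 2 h and 11.4% at 4 h. The first list has 1 higher and 1 lower of 25 genes at each duration, and known FoxO targets have 10 higher and 1 lower of 35 at 4 h, where the higher count is 4 without wt 4 h replicate 2.

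Over the 19 libraries, the genes whose log2 CPM was most like that of Foxo1 were Tat (r = 0.962), Rusc2 (0.957) and Slc25a51 (0.954), where r is Pearson's correlation, all libraries share the genotype contrast, and no test is given. After the mean of each group was subtracted they were Plcd3 (0.846), Cdo1 (0.814) and Tra2b (0.812), none of them the same. For Trib1, Brd2 came first both before (0.923) and after subtraction (0.827). For Cited2 the first were Zfp503 (0.868) before and Dchs1 (0.883) after, for Ccng2 Oser1 (0.879) and Cnnm4 (0.796), and for Irs2 Card6 (0.814) and AU022252 (0.826). For Foxo3 they were Brd1 (0.839) and Esrrg (0.857), for Insr Arhgap21 (0.863) and Kpna3 (0.925), and for Fbxo32 Sowahb (0.775) and Txnrd3 (0.795). Each was picked as the highest of 12493 genes.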

How the data were processed

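RNA from 19 livers was sequenced from stranded poly-A libraries, per the labels' protocols. The deposited count table holds whole-number raw counts per gene, and per the submitters' processing notes the tools were STAR together with Salmon (1.4.0), besides DESeq2 (1.30.0), on the build GRCm38.p6, with roles not given. The authors' deposited comparison tables give, per the file headers, a mean normalised signal, log2 fold changes with their errors, a test score, and p-values with their adjusted form. Library totals were 21474255 to 32721828 counts.

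Of 14576 genes, 257 with no value at 4 h were dropped, and a filter (minimum count 10, minimum total 15) kept 12493. edgeR 4.0.16 fitted all 19 libraries with TMM scaling and 1 mean per group, robust quasi-likelihood dispersion and 15 residual degrees of freedom, and p-values were adjusted over all fitted genes at 0.05. Intervals are 95% t intervals. The labels name separate mice, and p-values measure the spread between them. Correlations used log2 CPM with a prior count of 2. The fitting was tested on simulated data. Alternatives used other scalings and filters, DESeq2 1.42.0, limma 3.58.1, a replicate block, the compared groups alone and each library left out. Positions and promoters are on GRCm38, the promoters from RefSeq, with 7 of the 10 genes matched. The members, pathway lists and motifs were chosen with earlier results of these data known. All 10 genes are named. Of each list, up to 4 other called genes per comparison were named by smallest p, or the single gene of smallest p where none was called; 1 gene that this rule names is not reported here.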

Additional observations from a re-analysis of the deposited data

Results flagged for a closer look

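Among 40 sets of libraries (10 genes in 4 groups), 6 held a library far from the others by Dixon's criterion, which chance meets in about 1 of 20. Foxo3 was at 57.2 CPM in tg 4 h replicate 3, against 84.7 to 89.8 in the other tg 4 h livers, and at 94.1 CPM in wt 4 h replicate 1, against 49.1 to 59.9 in the other wt 4 h livers. Cited2 was at 19.7 CPM in tg 4 h replicate 3, against 11.2 to 13 in the rest of its group, and at 12 CPM in wt 2 h replicate 3, against 15.3 to 16.5. Irs1 was at 10.8 CPM in wt 2 h replicate 4, against 16.9 to 18.4, and Akt2 was at 118 CPM in tg 2 h replicate 1, against 95.7 to 98.2.

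Of these 6, 3 fell on the pair of 4 h livers nearer to the other genotype over the 1423 genes called at 4 h. The part of these livers in the Foxo3 and Cited2 values was not tested beyond leaving them out. Without wt 2 h replicate 3 the Cited2 log2 fold change at 2 h was -0.74 (edgeR adjusted p = 0.00997). Without tg 2 h replicate 1 that of Akt2 at 2 h was -0.03 (edgeR adjusted p = 0.936). Within tg, Cited2 at 4 h against 2 h was 0.39 without tg 4 h replicate 3 (edgeR adjusted p = 0.121).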

How the results depend on the processing

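Foxo1 kept its direction and its call at both durations and on average under every alternative run. Of the 10 genes, 5 were called at 4 h with limma-voom and sample weights, and within tg 2 were called with DESeq2, 0 with the replicate block and 0 with only the groups compared. Leaving out 1 library gave 1 to 3 called at 2 h, 1 to 3 at 4 h, 3 to 5 on average, 0 to 1 within tg, and 0 within wt and for the difference. Over all genes the same gave 151 (without tg 2 h replicate 5) to 244 called at 2 h and 895 (without wt 4 h replicate 3) to 1887 (without wt 4 h replicate 1) at 4 h, and within tg 20 (without tg 2 h replicate 3) to 134.

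Every change of sign was of a value near 0 that was not called, and the cause was not tested. With total counts alone Akt2 at 2 h was -0.01385, Ccng2 on average -0.04054 and Foxo3 within wt -0.03017. With limma-voom Irs2 within wt was 0.04056, Cited2 within wt 0.00918 and Foxo3 within wt -0.01562. With sample weights the difference between durations was 0.01299 for Foxo1 and 0.1179 for Trib1, and Foxo3 within wt was -0.03778. Foxo3 within wt was -0.006486 with a minimum count of 50, -0.006223 with the block and -0.001935 with only the groups compared. Without 1 library, the range was -0.06499 to 0.04604 for Insr at 2 h, -0.03046 to 0.07794 for Akt2 at 2 h, -0.2404 to 0.09356 for Irs1 at 4 h and -0.02759 to 0.08016 for Ccng2 on average. For the difference it was -0.1433 to 0.02409 for Foxo1, -0.1821 to 0.109 for Foxo3 and -0.1381 to 0.08665 for Trib1. It was -0.1676 to 0.03386 for Foxo3 within tg, and within wt -0.2603 to 0.1714 for Irs2, -0.1783 to 0.09148 for Foxo3 and -0.07165 to 0.05041 for Cited2.

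Nothing in the labels says that replicate numbers pair the mice, and the correlations between livers are too few to settle it. Same-numbered tg and wt livers deviated together with correlations of -0.329 to 0.186 at 2 h, where 1 of 4 was over 0.1, and -0.105 to 0.183 at 4 h, where 3 of 5 were. Between livers of different numbers 8 of 16 were over 0.1 at 2 h and 4 of 20 at 4 h. The medians were -0.212 for same numbers and 0.087 for different numbers at 2 h, and 0.113 and -0.0278 at 4 h. With the replicate block, 276 genes were called at 2 h, 1427 at 4 h and 78 within tg, against 270, 1423 and 114 without it, and Ccng2 within tg was 0.70 (edgeR adjusted p = 0.0519). Fbxo32 and Irs2 had the fewest counts in a library, 83 and 66, and the part of depth in their spread was not tested.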
